A study of Drosophila melanogaster with 3 samples.

Results

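CrebB is the fly counterpart of the cAMP response element binding protein CREB, a basic leucine zipper transcription factor, and its peaks are described here at 33 genes of synapses and neuronal excitability. The 33 genes were taken by name and not by a measured value, though with earlier results of these data known. All 33 matched a symbol among the 13945 protein-coding genes of the annotation on chromosomes 2, 3, 4 and X. The data are chromatin immunoprecipitation and sequencing (ChIP-seq) of Drosophila melanogaster embryos aged 0 to 24 h, both sexes together, in 1 group of 3 biological replicates. Every embryo came from 1 transgenic line in which CrebB carries green fluorescent protein at its C terminus, and embryos without the tag were not analysed here. Chromatin came from whole embryos, so the cell types in which a site was occupied are not known, and nerve cells are only a part of the embryo. A text field of the samples names them as input controls, whereas the antibody and source labels name CrebB. They were read as CrebB ChIP.

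The optimal list holds the 3915 peaks that passed the authors' threshold on the irreproducible discovery rate, a measure of how well peak ranks recur between replicates. The pooled list holds 30000 peaks called on the 3 replicates together and reaches far into weak signal, since 10663 of its peaks have a q-value under 0.05. Each replicate also has its own list of 30000 peaks. Read depth was not given, and a peak's signal, as the authors deposited it, has no stated scale, so it is compared within a list only. Across the optimal list it ran from 151.9 to 3466.1, with a median of 217.0. A promoter peak has its summit within 500 bp of an annotated start of a protein-coding transcript of the gene. An intron peak has its summit inside the gene, in none of its exons and more than 500 bp from any such start.

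In animals from flies to mammals, CREB proteins bind the cAMP response element, the palindrome TGACGTCA or its shorter core TGACG, and they are best known in neurons for transcription that follows synaptic activity and for long-term memory. The genes described here cover the steps of neuronal signalling. RNA-binding proteins and transcription factors give a cell its neuronal program, enzymes and transporters make transmitters and load them into vesicles, the release machinery docks, primes and fuses those vesicles, scaffold and adhesion proteins hold both sides of the synapse together, and ion channels set excitability. The embryonic collection includes the stages at which neurons differentiate and form their first synapses.

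The sequences of the strongest peaks are shown first because they can be set against the known element of the factor. Of the 15 optimal promoter and intron peaks of the 33 genes, 7 recurred in every replicate (elav and pros each have another in exon sequence, given with those genes), and 5 of those 7 had a summit window of 101 bases free of untranslated sequence. These 5 windows, from Release 6 of the genome (dm6, RefSeq copy), read 5′ to 3′ on the strand of the gene, with capitals for the GAGAG repeat, the only searched motif that they contain. The elav window upstream of the gene is chrX:523426-523526 on the minus strand and its intron window is chrX:522599-522699. The ChAT intron window is chr3R:18719938-18720038 on the plus strand, the dlg1 window at an internal start is chrX:11390780-11390880 on the plus strand, and the Shal intron window is chr3L:19575788-19575888 on the minus strand.
elav promoter: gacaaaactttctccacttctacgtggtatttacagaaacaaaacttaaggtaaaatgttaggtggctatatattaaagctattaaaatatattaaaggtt
ChAT intron: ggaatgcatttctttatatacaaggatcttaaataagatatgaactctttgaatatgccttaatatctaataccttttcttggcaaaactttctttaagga
elav intron: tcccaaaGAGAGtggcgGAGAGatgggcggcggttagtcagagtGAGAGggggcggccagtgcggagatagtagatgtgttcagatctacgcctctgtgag
dlg1 promoter: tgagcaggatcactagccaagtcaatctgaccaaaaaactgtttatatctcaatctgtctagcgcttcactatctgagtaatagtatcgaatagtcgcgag
Shal intron: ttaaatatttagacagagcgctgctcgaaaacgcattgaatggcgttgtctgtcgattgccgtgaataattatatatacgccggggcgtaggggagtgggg

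The windows differ in base composition, with 27.7% G and C at the elav promoter and in the ChAT intron and 58.4% in the elav intron. Over all 15 promoter and intron peaks the G and C content was 40.7% ± 11.6 (SD over 15 peaks), beside 38.0% ± 10.5 over all optimal peaks.

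No palindromic element lay within 100 bp of any of the 15 summits, and 0.587% of all optimal peaks held it there, so a count of 0 among 15 lies near the background. The core TGACG, on either strand, lay in 2 of the 15 windows, where 16.2% of all optimal peaks had it. The repeat GAGAG lay in 3 of 15, in the elav intron, at Syx1A and at dlg1, beside 28.1% of all optimal peaks. Also searched on both strands were the E-boxes CAGCTG (11.5% of optimal peaks) and CACGTG (3.04%), TATCGATA (3.88%), GGTCACAC (3.22%), TGANTCA with C or G in the middle (1.81%) and CAGGTAG (1.07%), and none of the 15 windows held any of them. TGACG is part of TGACGTCA, so the core count includes the palindromes. Both core matches are shown in 30 bases with the core in capitals, since no other of these peaks held the core in this window. The dlg1 match, chrX:11384240-11384269, lies in an intron with the core centred 56 bp upstream of the summit. The Csp match, chr3L:22267611-22267640, has its core centred 40 bp upstream of the summit and reads CGTCA on the gene's strand.
dlg1 intron core: acggtaaactgtTGACGgctacagtgtgca
Csp promoter core: catcggtacggaCGTCAaaaactgcaatta

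Palindromes near these genes were mostly far from any peak. Only Gad1, which encodes the enzyme that makes GABA, and Syt1, which encodes the calcium sensor of release, had TGACGTCA within 500 bp of an annotated start, 2 of 33 genes (6.06%) beside 2.05% of all protein-coding genes. These shares are not matched for the number of starts, of which the 33 genes had a median of 2 and all genes 1. Gad1 had the palindrome 175 and 332 bp upstream of a start, at chr3L:4086015-4086022 and chr3L:4089073-4089080. Syt1 had it 487 bp downstream, at chr2L:2795054-2795061. Neither gene had an optimal peak. The Gad1 site at 332 bp lies outside the span of the gene and 87 bp from a pooled-list summit of rank 12856, and the other Gad1 site and the Syt1 site lie 2971 and 3926 bp from the nearest. With the palindrome in capitals, on the strand of the gene, these 3 sites read as follows.
Gad1 site at 175 bp: cgaaaaatcaaTGACGTCAcccggagaatt
Gad1 site at 332 bp: aggacgggcgaTGACGTCAcagcctgcgcc
Syt1 site at 487 bp: tggatgtccttTGACGTCAtttgcaaagta

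Inside the spans of the genes, 12 genes held 27 palindromes, and 9 of these were in Sh, the Shaker potassium channel gene. None of the 27 lay within 100 bp of a pooled-list summit, whereas 139 of the 1196 palindromes in all protein-coding genes did (11.6%). That share is not matched for gene length or summit density. Pooled summits numbered 10.2 per 100 kb in the 33 genes and 23.7 in the other protein-coding genes. The density of palindromes was 2.12 per 100 kb of the 33 genes and 1.24 per 100 kb of all genes. A match is a match of letters only.

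CrebB promoter peaks were found at 7 of the 33 genes in the optimal list: elav, pros, Csp, Syx1A, shi, dlg1 and Nrx-1. That is 21.2%, where 18.7% of all protein-coding genes had one. Optimal intron peaks were found in 6 genes (elav, fne, ChAT, Syn, dlg1 and Shal), 18.2% beside 5.75% of all genes, and either kind in 11 genes (33.3%), beside 21.7%. The other 22 genes had neither.

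The genes are long, and length changes what these shares are to be read against. Their median length was 27653 bp, from 3468 bp for comt to 225026 bp for Snap25, with a median of 2 start sites, while the median over all protein-coding genes was 2166 bp and 1 start. When the other protein-coding genes were sorted into 6 length bins and each bin's share was weighted by how many of the 33 genes fall in it, the share with an optimal promoter peak was 28.5%, which corresponds to 9.41 of 33 genes, and the share with an optimal intron peak was 28.0%, or 9.25 genes. For either kind it was 42.4%, or 14.0 genes. Thus the counts of 7, 6 and 11 lay below the share of genes of like length. Against all genes the intron share was higher, while the promoter share of 21.2% was near 18.7%. The promoter count lay below the like-length share under all 14 settings tried for it and the intron count under all 13. These settings share many of the same peaks, and the size of the gap varied. For promoters it was less than 1 gene at 250 bp (21.2% beside 23.3%) and without replicate 1 (15.2% beside 17.0%). It was wider at 1000 bp (21.2% beside 33.6%). For introns it ran from 15.2% beside 20.5% without replicate 2 to 12.1% beside 24.6% beyond 1000 bp. No test was made, because the 33 genes are not replicates and the series has 1 group.

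Each replicate's own list gives the spread of these counts. Among the first 3915 ranks, 6, 7 and 7 genes had a promoter peak in replicates 1, 2 and 3 (20.2% ± 1.75, SD, n = 3), and all protein-coding genes had 18.3%, 18.1% and 19.3%. The 33 genes were thus level with all genes in replicate 1, at 18.2%, and slightly above in the others, at 21.2%. An intron peak was present in 5, 4 and 6 genes (15.2% ± 3.03, SD, n = 3), beside 5.64%, 5.87% and 5.71% of all genes. The share weighted for length was 30.4%, 29.5% and 28.0% for promoters and 27.3%, 27.5% and 28.2% for introns. All 3 replicates therefore lay below it in both places.

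**Figure D1:**
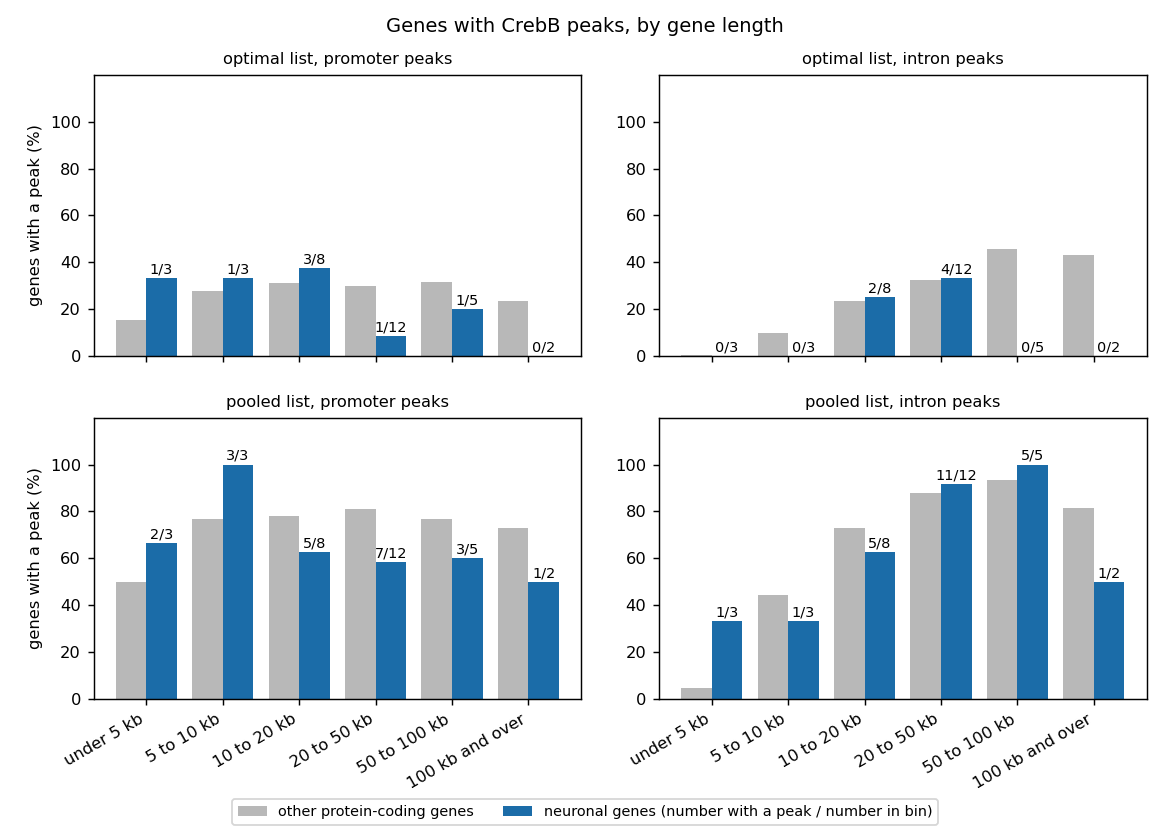
Share of genes (%, vertical axis) with a promoter peak (left) or an intron peak (right) in the optimal list (top) and the pooled list (bottom), by gene length in kb. Grey bars are the other protein-coding genes and blue bars the 33 neuronal genes, with the number of genes above each bar; in the bin from 20 to 50 kb 1 of 12 neuronal genes had an optimal promoter peak, beside 29.8% of the others, and none of the 7 genes of 50 kb or more had an optimal intron peak.

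The counts can be set against other genes bin by bin. Under 5 kb and from 5 to 10 kb, 1 of 3 genes each had an optimal promoter peak, beside 15.2% and 27.7% of the other genes, and none had an intron peak, beside 0.593% and 9.84%. In the bin from 10 to 20 kb, 3 of 8 genes had an optimal promoter peak and 2 of 8 an intron peak, beside 31.3% and 23.5% of the other genes. From 20 to 50 kb it was 1 of 12 at promoters (29.8% of others) and 4 of 12 in introns (32.6%). From 50 to 100 kb it was 1 of 5 at promoters (31.5%) and 0 of 5 in introns (45.7%), and both genes of 100 kb and over, Sh and Snap25, had none. With so few genes in each bin, 1 gene moves a share by a large step.

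In the pooled list 21 genes (63.6%) had a promoter peak, beside 56.8% of all genes and 76.0% weighted for length. An intron peak was listed in 24 genes (72.7%), beside 19.6% of all genes and 73.2% weighted for length. With either kind counted, 30 genes (90.9%) were reached, beside 59.8% and 86.7%. The exceptions were VGlut, unc-13 and Snap25. At a q-value under 0.05, 13 genes (39.4%) had a pooled promoter peak, beside 38.4% of all genes and 56.3% weighted for length. An intron peak passed that limit in 8 genes (24.2%), beside 11.4% and 48.6%.

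Recurrence differed widely between the 15 optimal promoter and intron peaks. A peak was counted as supported by a replicate when that replicate's first 3915 ranks had a summit within 100 bp. By that measure 7 of 15 (46.7%) were supported by all 3 replicates, where 50.04% of all optimal peaks were, and each of the 15 was supported by at least 1. Their median signal was 185.4 and their median rank 2673, beside 217.0 and 1958 over all optimal peaks. When the full replicate lists were read, 14 of 15 had a summit in every replicate. The exception was a dlg1 peak.

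**Figure D2:**
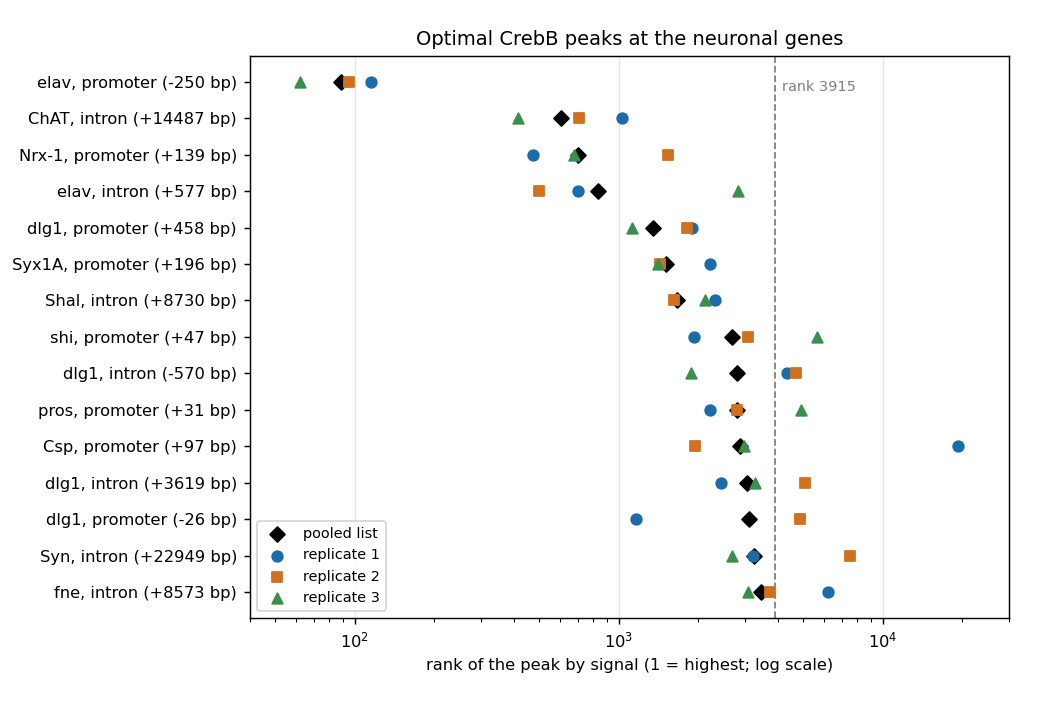
Rank of each of the 15 optimal promoter and intron peaks by signal (horizontal axis, log scale, 1 is the highest) in the pooled list (black diamonds) and in each replicate (coloured symbols), with the distance from the nearest start of the gene in bp beside its name. The dashed line is rank 3915; the elav promoter peak stays between rank 62 and rank 115 in all lists, and the Csp peak is at rank 19321 in replicate 1.

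The neuronal regulators had the strongest peak of the 33 genes. Of 4 genes, 2 had an optimal promoter peak and 2 an optimal intron peak, and all 4 had a pooled promoter peak. The shares of all protein-coding genes were 18.7%, 5.75% and 56.8%. In the length bins of these 4 genes the other genes had 29.8% to 31.5%, 23.5% to 45.7% and 76.7% to 81.1%. In so small a group 1 gene moves the share by a large step. elav (FBgn0260400, chrX:509235-523226, minus strand) encodes the pan-neuronal RNA-binding protein that directs neuron-specific RNA processing. Its promoter peak, chrX:523342-523635, has its summit 250 bp upstream of the start and a signal of 960.7, rank 89 in the pooled list. In replicates 1, 2 and 3 it stood at rank 115, 95 and 62, so every replicate placed it near the top. The summit is upstream of elav and lies in an intron of arg, the arginase gene, more than 500 bp from any start of another protein-coding gene.

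The elav intron peak, chrX:522451-522846, lies 577 bp downstream of the start, just past the promoter limit, with signal 337.3 and rank 834. Its replicate ranks were 703, 500 and 2840, lower in replicate 3 than in the others. A further optimal peak, chrX:515711-516106 with signal 190.4, has its summit in untranslated exon sequence of elav and belongs to neither class. elav thus had 3 optimal peaks over 13992 bp and its immediate upstream region, and 6 pooled summits inside the gene.

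fne (FBgn0086675, found in neurons), a relative of elav, had an intron peak near the bottom of the optimal list. That peak, chrX:12925859-12926254, lies 8573 bp downstream of the nearest start with signal 163.0 and rank 3463. Its replicate ranks were 6178, 3741 and 3090, so replicate 1 did not support it. At a promoter fne had only a pooled peak of signal 65.0.

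pros (FBgn0004595, chr3R:11328480-11407627) encodes the homeodomain protein Prospero, which ends the divisions of neural precursors. It had a promoter peak at an internal start, chr3R:11372621-11373016, 31 bp downstream of that start and 44339 bp from the 5′-most start. The signal was 180.9, rank 2798, with replicate ranks 2215, 2810 and 4883. Another optimal peak of pros, chr3R:11392941-11393049 with signal 199.0, has its summit in untranslated exon sequence. scrt (FBgn0004880), the gene of the zinc-finger repressor Scratch, had no optimal peak. Its best pooled promoter peak had signal 126.6 and rank 5287, and replicate ranks 4294, 7654 and 6758 were all past rank 3915.

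Among transmitter enzymes and transporters, 1 of 6 genes had an optimal peak, and none had one at its promoter. Of all protein-coding genes 21.7% had either kind and 18.7% a promoter peak. In the length bins of these 6 genes, 15.2% to 31.3% of the other genes had a promoter peak. ChAT (FBgn0000303, chr3R:18705501-18732344) encodes choline acetyltransferase, which makes acetylcholine. Its intron peak, chr3R:18719872-18720069, lies 14487 bp downstream of the only start, with signal 392.6 and rank 604. Replicate ranks were 1028, 707 and 414, all well inside the first 3915. At the summit the annotation also has an exon of the noncoding RNA gene CR46265. VAChT (FBgn0270928), the vesicular acetylcholine transporter gene, shares its start with ChAT but ends before this peak. That shared start had no promoter peak in the pooled list or in any replicate, and counting both genes as 1 left the promoter count at 7.

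The other transmitter genes had weak or absent promoter peaks. ple (FBgn0005626), which encodes tyrosine hydroxylase of dopamine synthesis, had a pooled promoter peak of signal 131.5 and rank 4967, below the lowest optimal signal of 151.9. The matching ranks were 8509 and 11991 in replicates 1 and 2, with no summit within 100 bp in replicate 3. Another summit did place ple among the promoter genes of the first 3915 ranks of replicate 3. Gad1 (FBgn0004516) had a promoter peak of signal 70.5, rank 12856, which also lies at a start of CG14989. Ddc (FBgn0000422), dopa decarboxylase, had a promoter peak in the full lists of replicates 2 and 3 and none in the pooled list. VGlut (FBgn0031424), the vesicular glutamate transporter gene, had neither a promoter nor an intron peak in the pooled list. Its span held 1 pooled summit that counts as neither, and the gene with 500 kb on each side held 303.

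The release machinery had 3 optimal promoter peaks and 1 intron peak in 12 genes, beside 18.7% and 5.75% of all protein-coding genes with one. Across the length bins of these genes, 15.2% to 31.3% of the other genes had a promoter peak and 0.593% to 43.2% an intron peak. Syx1A (FBgn0013343, chr3R:24101600-24105763, minus strand) encodes syntaxin, the SNARE protein of the plasma membrane. Its peak, chr3R:24105369-24105764, has its summit in the 5′ UTR, 196 bp downstream of the start, with signal 246.1 and rank 1515. Replicate ranks of 2216, 1436 and 1413 were close to each other. The summit also lies in an intron of eIF4EHP, which has no start within 500 bp.

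Csp (FBgn0004179, chr3L:22267382-22273745) encodes the cysteine string protein, a chaperone of synaptic vesicles. Its promoter peak, chr3L:22267467-22267862, had its summit in the 5′ UTR, 97 bp downstream of a start, with signal 178.4 and rank 2883. It stood at rank 19321 in replicate 1 but 1943 and 2977 in replicates 2 and 3, so it rests on those replicates. shi (FBgn0003392, chrX:15892116-15906716) encodes dynamin, which pinches off endocytic vesicles. The shi peak, chrX:15892049-15892444, is in the 5′ UTR 47 bp downstream of a start with signal 185.4, and ranked 1930, 3082 and 5646. Syn (FBgn0004575, chr3R:10190689-10222442), the gene of the vesicle-clustering protein synapsin, had its optimal peak in an intron. That peak, chr3R:10213440-10213835, is 22949 bp from the start with signal 167.9, and ranked 3223, 7541 and 2678.

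The remaining 8 release genes had no optimal peak. comt (FBgn0000346), which encodes the NSF ATPase that takes SNARE complexes apart, came closest, with signal 141.4 and rank 4396 at a site shared with the starts of CG15742 and mew. It had no summit there in replicate 1 and ranks 7429 and 2696 in replicates 2 and 3. cpx, the gene of the fusion clamp complexin (FBgn0041605), had signal 113.1 at the best of 4 promoter peaks. Signals were 57.1 at brp (FBgn0259246) and 55.1 at Rim (FBgn0053547), which encode proteins of the active zone, and 45.5 at Syt1 (FBgn0004242) and 44.5 at nSyb (FBgn0013342), the gene of vesicular synaptobrevin. Their q-values were 0.274, 0.312, 0.511 and 0.534, at ranks 17694, 18789, 25038 and 25957 of 30000. unc-13, which encodes the priming factor, and Snap25, which encodes the partner SNARE of syntaxin, had no pooled summit anywhere in the gene.

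Snap25 (FBgn0011288, chr3L:24074180-24299205) stands in a stretch without peaks. The 1225.0 kb made of the gene and 500 kb on each side held 0 pooled summits, and the nearest optimal summit was 978720 bp away. None of the 3 replicates had a summit in the gene either. unc-13 (FBgn0025726), on chromosome 4, had 0 pooled summits in 44508 bp and 1, 0 and 1 in the replicates, and its surroundings held 9.08 per 100 kb, where the genome had 22.4. The part of those surroundings in the lack of peaks at these genes was not tested.

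Scaffold and adhesion genes had optimal promoter peaks at 2 of 3 genes, beside 18.7% of all protein-coding genes. In their length bins, from 10 to 20 kb and from 20 to 50 kb, 31.3% and 29.8% of the other genes had one. dlg1 (FBgn0001624, chrX:11369665-11409776), which encodes the Discs large scaffold of the postsynapse and of epithelial septate junctions, carried 4 optimal peaks, more than any other of the 33 genes. Its strongest, chrX:11390756-11390864, lies 458 bp downstream of an internal start and 21165 bp from the 5′-most start, with signal 260.4, rank 1353 and replicate ranks 1902, 1809 and 1122. The other promoter peak, chrX:11389845-11390240, lies 26 bp upstream of an internal start with signal 171.7. It ranked 1165 and 4877 in replicates 1 and 2 and had no summit within 100 bp in replicate 3.

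Both intron peaks of dlg1 were supported by fewer than 3 replicates. The one at chrX:11384112-11384507 is 570 bp upstream of an internal start with signal 181.0, holds the core shown above, and ranked 4327, 4696 and 1878. The one at chrX:11379184-11379579 has signal 172.6 and ranked 2441, 5071 and 3287. No optimal peak lay at the 5′-most start of dlg1. Nrx-1 (FBgn0038975, chr3R:22468512-22486969) encodes the presynaptic adhesion protein neurexin. Its peak, chr3R:22469236-22469429, has its summit in the 5′ UTR, 139 bp downstream of a start, with signal 365.5 and rank 702. Replicate ranks were 472, 1534 and 674. Nlg1 (FBgn0051146), a neuroligin gene, had no promoter peak in the pooled list and 3 pooled intron peaks, of which the best had signal 57.8.

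**Figure D3:**
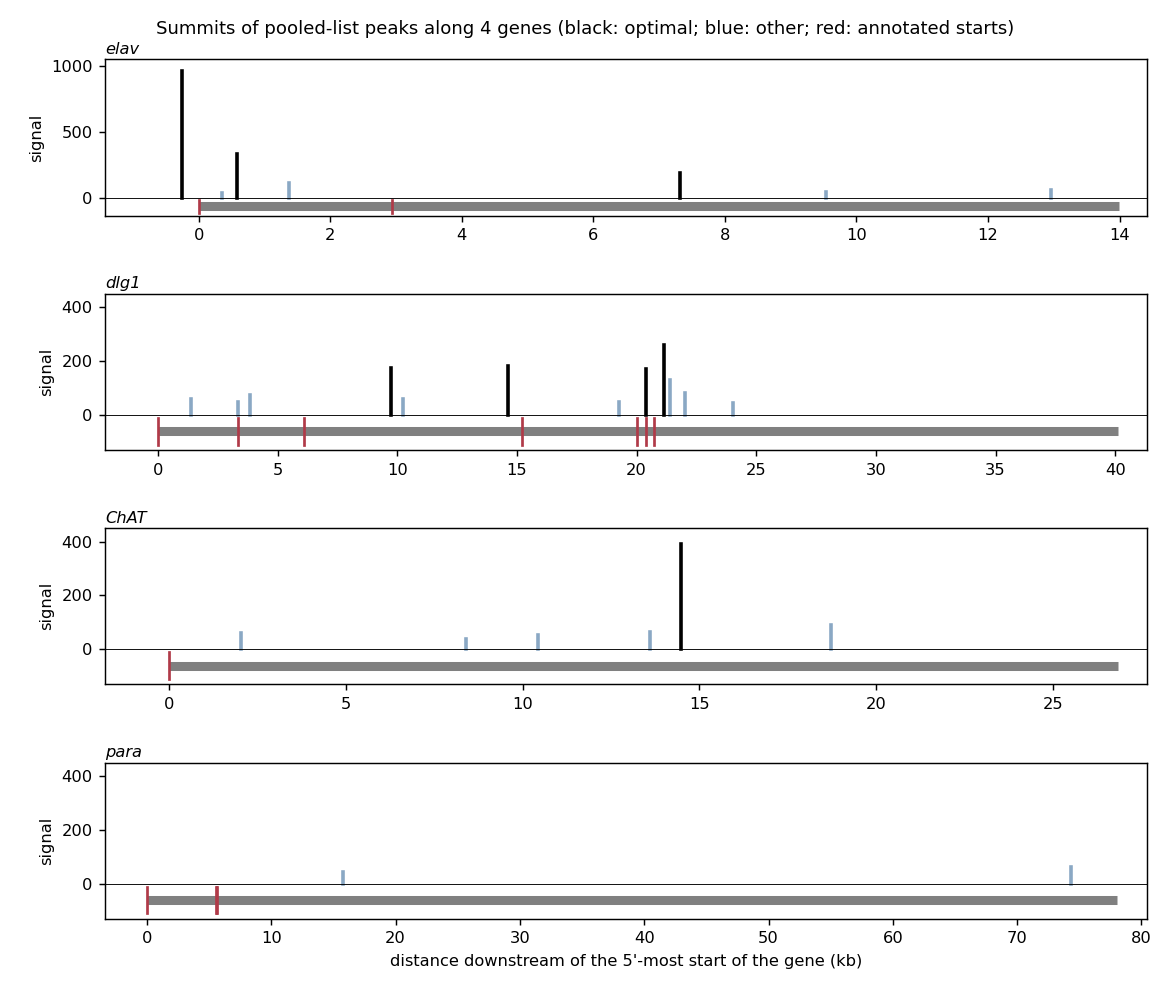
Signal of pooled-list peaks (vertical lines, authors' signal with no stated scale) along elav, dlg1, ChAT and para, by distance from the 5′-most start in kb; grey bars are the genes, red marks annotated starts, black lines optimal peaks and blue lines other pooled peaks. The elav summit at 960.7 lies upstream of the gene, the dlg1 peaks lie near and between internal starts, the ChAT peak is the only optimal peak of that gene, among 5 weaker pooled summits, and para has 2 weak summits.

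Of the 8 genes of ion channels and the GABA receptor, none had an optimal promoter peak, and 1 had an optimal intron peak. The shares were 18.7% and 5.75% of all protein-coding genes. Across the 4 length bins of these genes, all above 10 kb, 23.5% to 31.5% of the other genes had a promoter peak and 23.5% to 45.7% an intron peak. With 8 genes, 1 gene moves a share by a large step. Shal (FBgn0005564, chr3L:19566851-19584568, minus strand) encodes a potassium channel of transient A-type current. Its intron peak, chr3L:19575640-19576035, is 8730 bp from the start with signal 234.7 and rank 1666. Replicate ranks of 2323, 1622 and 2118 were close to each other.

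Pooled promoter peaks were listed at 4 of the 8 genes, beside 56.8% of all genes and 72.8% to 81.1% of the other genes in their length bins. eag (FBgn0000535), which encodes the Ether-a-go-go potassium channel, had signal 130.8 and replicate ranks 4880, 4394 and 9452, at a site shared with a start of CG9030. Shab (FBgn0262593), a delayed rectifier gene, had signal 81.8, and slo (FBgn0003429), the gene of the calcium-activated potassium channel, had 69.4. At Sh (FBgn0003380) the signal was 42.8 with no summit within 100 bp in any replicate. para (FBgn0285944), the sodium channel of the action potential, cac (FBgn0263111), the calcium channel of transmitter release, Shal and Rdl (FBgn0004244), the GABA-gated chloride channel, had no pooled promoter peak. Full replicate lists did hold other promoter peaks, for Sh in replicates 2 and 3, for para in replicates 1 and 3, and for Rdl in replicate 1. All 8 genes had at least 1 pooled intron peak, beside 19.6% of all genes and 73.1% to 93.6% of the other genes in their length bins. Outside Shal the best signals ran from 44.0 at Rdl to 82.5 at Shab.

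Counted over whole gene spans, pooled summits were sparse. The 33 genes held 130 summits in 1270.7 kb, or 10.2 per 100 kb. At the density of other protein-coding genes in the same length bins they would hold 261, or 20.6 per 100 kb, a ratio of 0.498. The ratio was 0.466, 0.497 and 0.584 in the full lists of replicates 1, 2 and 3 (0.516 ± 0.0612, SD, n = 3), below 1 in each. Without Snap25 the density was 12.4 per 100 kb and the ratio 0.550 in the pooled list. For optimal peaks 16 summits lay in the spans, beside 27.9 at the density of like-length genes. Gene by gene, 22 of 33 lay under the median of their length bin and 10 above it, and comt, at 0, equalled its bin. The median of the bin under 5 kb is 0, so no gene there could lie below it. Ddc and Syx1A lay above it with 1 and 2 summits.

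The ion channel and receptor genes, together the largest group by length, had few summits. They held 36 pooled summits in 493 kb, where genes of like length would hold 94.3, and 30, 31 and 55 in the replicates, beside 91.7, 91.9 and 98.1. Of the 8 genes 7 lay below the median of their bin, with Shal the exception. cac had 1 summit in 53808 bp (1, 0 and 0 in the replicates) and para 2 in 78070 bp (2, 4 and 10), while the regions around them held 21.0 and 26.0 per 100 kb. The 22 ion channel genes of the wider list described at the end held 101 pooled summits in 624 kb beside 153 at like length, or 16.2 per 100 kb where these 8 genes had 7.30, and 14 optimal summits beside 17.2 where these 8 genes had 1 beside 9.58. Sh had 12 in 138941 bp, with 6, 13 and 18 in the replicates, a wide spread.

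The release genes held 36 pooled summits beside 88.5 with Snap25 and 63.6 without it, and 28, 43 and 33 in the replicates, so their place relative to the channel genes changed with the replicate and with Snap25. The neuronal regulators held 24 pooled summits beside 32.1, with 24, 23 and 35 in the replicates. The replicate 3 value was above its own like-length number of 32.2 and the others were below theirs. The scaffold and adhesion genes held 19 beside 25.0, with 25, 18 and 17 in the replicates, and the transmitter genes 15 beside 21.4. In optimal peaks the regulators held 5 beside 3.59 and the scaffold and adhesion genes 5 beside 2.87. elav and pros held 2 each of the former and dlg1 held 4 of the latter.

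**Figure D4:**
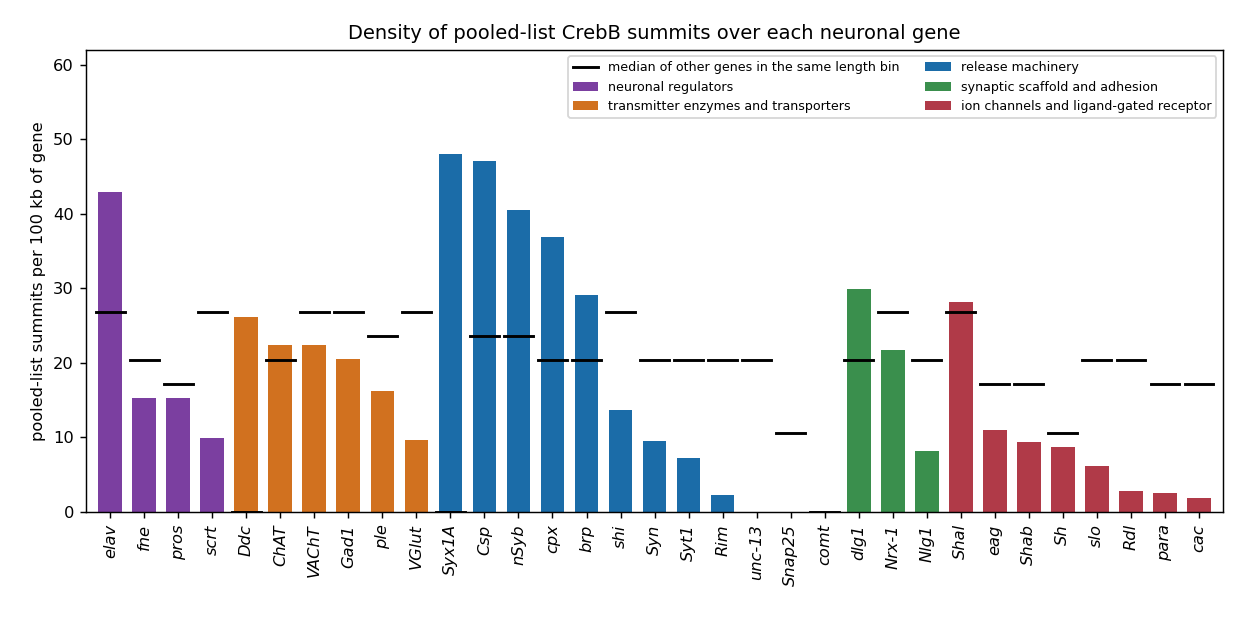
Pooled-list summits per 100 kb of gene (vertical axis) for each of the 33 genes, coloured by role, with a black line for the median of the other genes in the same length bin. Among the ion channel genes only Shal reaches its line, and unc-13, Snap25 and comt are at 0.

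By median rank and q-value, intron peaks of these genes were weaker than those of all protein-coding genes, a comparison not matched for gene length. Their 76 pairs of gene and pooled intron peak had a median rank of 20078 and 14 pairs (18.4%) had a q-value under 0.05, beside 16074 and 31.6% over all protein-coding genes. The share in the optimal list was similar, with 7 of the 76 pairs beside 1316 of 12598 over all genes. At promoters the median best rank was 5287 over the 21 genes with one and 6550 over all 7925 genes with one. These ranks are not matched for starts, of which the 33 genes had a median of 2 and all genes 1. In the full replicate lists 17 of 33 genes (51.5%) had a promoter peak in all 3 replicates and 9 (27.3%) in none, beside 41.7% and 30.6% of all genes. Those shares of all genes are not weighted for length. Replicate by replicate, 57.6%, 63.6% and 66.7% of the 33 genes had one, below the length-weighted 74.7%, 73.2% and 74.3%.

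A wider list of 102 further neuronal genes, of which 101 were found in the annotation, was read the same way. An optimal promoter peak was present at 10 of the 101 (9.90%) and an optimal intron peak in 10 (9.90%), where the length-weighted shares were 27.4% and 23.1%. In the pooled list the counts were 62 and 53, beside 73.9 and 62.2 at the length-weighted share. The promoter peaks were at Dscam1 (signal 212.6), a neuronal adhesion gene, at Hdc (153.2), the histamine enzyme gene, at Sap47 (211.8) and Rop (166.7) of the release machinery, at the adhesion and scaffold genes Nrg (294.5), Fas2 (196.7) and scrib (191.3), and at the channel genes NaCP60E (622.1), Irk1 (229.7) and sei (210.4). Those at NaCP60E, Irk1, sei and Rop each lie at a start of another gene as well. The Hdc peak, at rank 3855, was supported by 1 replicate, the peaks at Rop, scrib, Irk1 and sei by 2, and the others by 3. Of 30 transmitter receptor genes none had an optimal promoter peak and 1, mAChR-A, had an optimal intron peak. Of the 22 ion channel genes of the wider list 5 had an optimal intron peak: KCNQ (signal 801.0), Irk1 (343.7), Ca-beta (205.4), Shawl (184.0) and Ih (156.4). Over all protein-coding genes 18.7% had an optimal promoter peak and 5.75% an optimal intron peak, shares that are not weighted for length.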

How the data were processed

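Peaks of CrebB ChIP-seq from 3 biological replicates of whole embryos were analysed, all in 1 group by the antibody label. The authors' peak calling set each replicate's alignment, and all of them combined, against a control alignment on assembly dm6, per the text deposited beside the peak lists, and a threshold on the irreproducible discovery rate gave the optimal list. Aligner and caller are not given in the sources used here. Signal, as deposited, served to rank peaks inside a list, since its scale is not stated. The deposited −log10 q-value set the limit of 0.05, and the deposited summit offset placed the summit. The optimal list proved to be the top 3915 pooled peaks by signal. Chromatin was sonicated, with a size range of 200 to 800 per the labels. Depth is unknown.

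Gene models were Ensembl release 115 (19607 starts of 13945 genes), sequence was the RefSeq copy of Release 6, and all peak ends lay within its chromosomes. Coordinates are written from 1. Like-length shares used 6 bins, with limits at 5, 10, 20, 50 and 100 kb, and leave out the 33 genes. Replicates are biological by the labels, and SDs are over the 3 replicate lists. No test was made. Assignment was tested on simulated peaks. The alternatives changed the distance to a start, the start used, the peak set, the replicates, the support rule, the motif window and the length match. Leaving out Snap25, counting ChAT and VAChT as 1 gene, and densities by replicate were added after seeing the data. Named are all 33 genes and, per role of the wider list, up to 3 with the strongest optimal promoter peaks; genes of that list with intron peaks were named after their values were seen. The genes and lists were chosen with earlier results of these data known. In the wider list 1 symbol matched by a synonym and 1 had no match. Python 3.11.15, pandas 2.3.3 and numpy 2.4.6 were used.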

Additional observations from a re-analysis of the deposited data

How the results depend on the processing

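The choice of start and of peak set moved the counts, and the number of genes is small. The 7 genes with an optimal promoter peak became 4 with the 5′-most start only, in the highest-signal part of the optimal list (1957 peaks) and among fully supported peaks (all 3 replicates). They became 4 to 6 when a replicate was left out. Leaving out a replicate here means keeping the optimal peaks that both other replicates support. The optimal list itself was not made anew and still rests on all 3 replicates. The length-weighted promoter share of 28.5% became 23.3% at 250 bp, 33.6% at 1000 bp, 20.9% with the 5′-most start, 30.6% by overlap with the window, 15.9% in the highest-signal part, 15.3% with full support, 30.4% in replicate 1 alone, 30.5% with the 100 genes nearest in length, and 17.0% to 20.8% without a replicate. The 6 genes with an optimal intron peak became 3 in the highest-signal part and with full support, and 3 to 5 without a replicate. The length-weighted intron share of 28.0% became 29.7% beyond 250 bp, 24.6% beyond 1000 bp, 29.8% with peaks at other promoters kept, 17.6% in the highest-signal part, 18.5% with full support, 27.3% and 27.5% in replicates 1 and 2 alone, and 20.5% to 21.2% without a replicate. At a q-value under 0.05 the pooled promoter count of 21 became 13 and the intron count of 24 became 8, while those of all genes went from 7925 to 5354 and from 2740 to 1583. Support by all 3 replicates, 7 of 15 peaks, became 14 with full lists and 13 with 7830 ranks, and 9 whichever replicate was left out. The density ratio of 0.498 was 0.584 in replicate 3. Within 50 bp the core TGACG was in 1 of the 15 peaks, beside 8.35% of all optimal peaks. Within 250 bp it was in 7 (39.4% of all optimal peaks), GAGAG in 7 (56.1%) and CAGCTG in 4 (26.9%). In that wider window TGANTCA (5.49%), GGTCACAC (6.72%) and CACGTG (7.59%) were in 1 each. Alternatives with fewer peaks, fewer starts or a narrower window count fewer genes by construction, and the cause of the other shifts was not tested. The other 51 recomputed values stayed within 1.5 times a count or 1 SD over replicates of a share. No paired analysis was possible because the series has 1 group. Unknown depth limits what the absence of a peak shows.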
